A study of Mus musculus with 12 samples.

Results

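Transcripts of meiotic recombination and synapsis genes were followed in sorted mouse spermatids, the haploid cells that remain after meiosis has ended. The genes listed were Mnd1, Psmc3ip, Dmc1, Sycp1, Sycp2, Sycp3, Hormad1, Syce1 and Ccna1, and a contig of the count table belonged to them when the gene symbol given for it was 1 of these 9. A contig of a gene is 1 reference transcript with its reads, and some genes have several. The rule found 16 contigs of 8 genes among 12114 contigs. Of these 12114, 11517 were transcripts and 597 were repeats, and values over all contigs draw on both kinds. Dmc1, the meiosis-specific strand exchange recombinase, had no contig among those analysed here. The list was drawn up around Mnd1, which was selected on its difference between Tent5c genotypes in these same libraries. Every comparison here uses groups of that selection, so all values of Mnd1 are given as a description and none is tested.

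The 12 libraries were made by Nanopore direct RNA sequencing, in which a read is the trace of a single poly(A) RNA molecule without amplification. Per the study's methods, a cDNA strand was made on the RNA before sequencing. They formed 4 groups of 3, round (RS) or elongated (ES) spermatids of adult males, with the genotype Tent5c wt/wt or Tent5c dcat/dcat. The dcat allele, carried in the whole animal on a C57BL/6 background per the study's methods, encodes a catalytically inactive TENT5C, a non-canonical poly(A) polymerase. No group received a treatment. Each library held pooled mRNA of 3 mice, so the spread between libraries is a spread between pools. Per the study's methods, tubules were freed from the interstitial cells of the testis before they were dispersed, and spermatids were then sorted on DNA content, red fluorescence and scatter. Library totals ran from 337287 to 1359427 reads, and a floor of 3 reads corresponded to 1.77 to 10.6 CPM (reads scaled to a common library size with TMM, which corrects for library composition). Intervals and floors on counts cover counting error only. Markers of elongated spermatids, such as the protamines, summed to 206000 to 274500 CPM in the 6 ES libraries and to 18720 to 40660 CPM in the 6 RS libraries. Tent5c itself was read in every library (229 to 660 counts), and its count is no check of the dcat allele, which leaves the transcript in place: dcat/dcat minus wt/wt was 0.15 (SE 0.18) in RS and 0.20 (SE 0.18) in ES on the log2 scale (edgeR quasi-likelihood test, not called).

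During meiosis, programmed DNA breaks are repaired from the homologous chromosome. The recombinase DMC1 coats the single-stranded DNA, and the heterodimer of MND1 and HOP2 (the product of Psmc3ip) helps it to capture and pair with the homologous duplex. SYCP2, SYCP3 and HORMAD1 belong to the chromosome axis, SYCP1 forms the transverse filaments between the axes, and SYCE1 lies in the central element of the synaptonemal complex. Ccna1 encodes cyclin A1, a germline cyclin needed for the male meiotic divisions. These genes act in spermatocytes, before the stages sampled here.

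The promoters of both partners of the heterodimer, Mnd1 and Psmc3ip, are shown because their transcripts followed different patterns below. Each is a window of 300 bases around the start of the gene, most of it upstream, from RefSeq on GRCm38.p6, written on the gene's own strand. Mnd1 lies at chr3:84155737-84156036 (minus strand) and Psmc3ip at chr11:101095386-101095685 (minus strand). Capitals mark letters of a GC box (GGGCGG) or a CCAAT box (CCAAT) on either strand.
Mnd1: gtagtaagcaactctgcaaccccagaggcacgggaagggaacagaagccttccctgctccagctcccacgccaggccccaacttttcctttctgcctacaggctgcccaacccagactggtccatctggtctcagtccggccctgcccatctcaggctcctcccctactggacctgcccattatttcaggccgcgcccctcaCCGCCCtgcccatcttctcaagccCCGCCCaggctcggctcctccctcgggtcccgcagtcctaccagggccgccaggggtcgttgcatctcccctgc
Psmc3ip: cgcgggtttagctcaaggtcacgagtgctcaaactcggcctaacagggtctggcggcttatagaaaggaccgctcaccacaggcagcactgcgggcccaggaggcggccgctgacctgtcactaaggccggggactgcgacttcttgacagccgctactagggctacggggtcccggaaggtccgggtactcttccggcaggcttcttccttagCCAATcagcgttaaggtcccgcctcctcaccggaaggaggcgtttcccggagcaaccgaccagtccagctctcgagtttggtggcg
The Mnd1 window held 2 GC boxes, both read on the opposite strand, and no CCAAT box, while the Psmc3ip window held 1 CCAAT box and no GC box. No marked motif overlapped another. Neither held an E-box (CACGTG) or a cAMP response element (TGACGTCA). Over all 32851 promoters of the same length, 35.7% held a GC box, 37.4% a CCAAT box, 7.15% an E-box and 1.79% a cAMP response element. GC content was 65.0% for Mnd1 and 62.7% for Psmc3ip, against a median of 52.7%. Of the 9 listed genes, 5 held a GC box, 3 a CCAAT box, 3 an E-box and 0 a cAMP response element.

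Mnd1 was read from a single contig (ENSMUST00000047368; chr3:84087933-84155786 on the minus strand of GRCm38, 8 exons, protein-coding). In wt/wt RS it had 5, 3 and 0 reads in the 3 libraries, and in dcat/dcat RS 10, 14 and 30. In wt/wt ES it had 2, 2 and 3 reads, and in dcat/dcat ES 25, 20 and 37. The 6 dcat/dcat libraries all lay above the 6 wt/wt libraries in reads. Scaled levels were 2.57 ± 2.25 CPM (SD, n = 3) in wt/wt RS, 17.9 ± 7.03 in dcat/dcat RS, 6.19 ± 3.80 in wt/wt ES and 56.7 ± 6.34 in dcat/dcat ES. The genotypes did not overlap within either stage.

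In counts summed over the libraries of a group and scaled to their depth, Mnd1 was 8.66 times higher in dcat/dcat than in wt/wt RS (54 against 8 reads, 95% exact interval 4.10 to 21.1) and 10.6 times higher in ES (82 against 7 reads, 4.90 to 27.1). The fitted log2 differences were 2.94 (SE 0.61) in RS and 3.32 (SE 0.62) in ES. Among 11831 contigs, the log2 difference of Mnd1 ranked 5 from the top in RS and 7 in ES. Mnd1 was chosen on this difference, so the intervals and ranks only describe it and give it no support. The exact intervals also leave out the spread between pools. The contig reached the minimum for testing, 10 reads in 2 libraries of a group, only in the dcat/dcat groups, where it was high. The wt/wt levels rest on 8 and 7 reads: without wt/wt RS replicate 3, which had 0 reads, the RS difference was 2.14, and without replicate 1 it was 3.69. Without wt/wt ES replicate 3 the ES difference was 3.76. Between stages, Mnd1 was 1.64 (SE 0.45) higher in ES than in RS of dcat/dcat, where the groups did not overlap, and 1.26 (SE 0.87) higher in wt/wt, where they did. These stage values were 0.98 and 0.56 when libraries were scaled on total counts only, and leaving out wt/wt RS replicate 1 or 3 gave 2.01 or 0.46 in wt/wt.

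**Figure D1:**
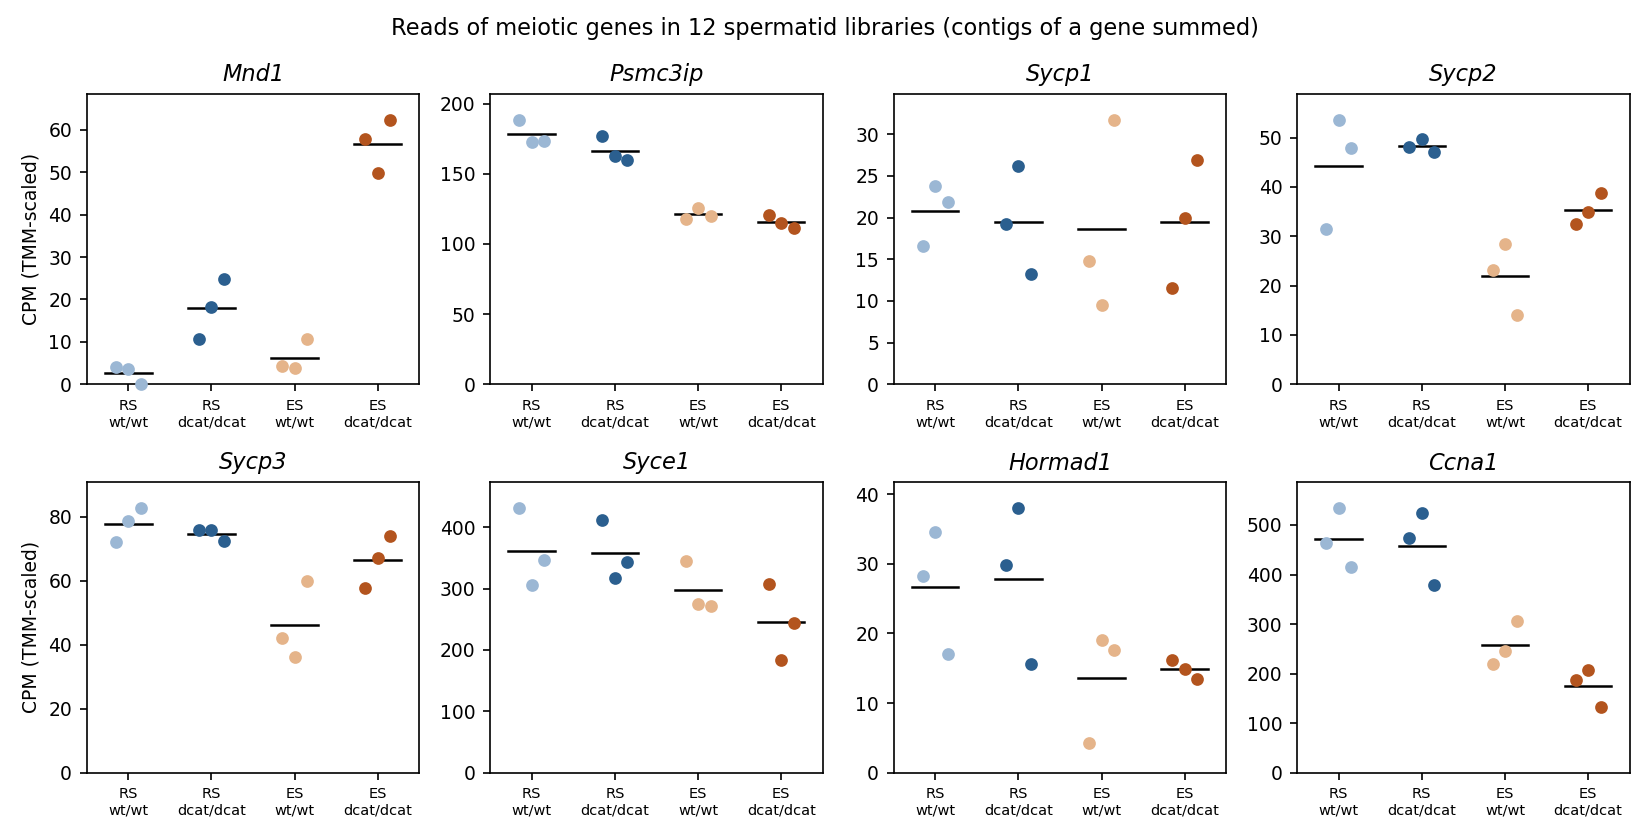
Scaled reads of 8 meiotic genes in each of the 12 libraries. The vertical axes give CPM after TMM scaling, summed over the contigs of a gene and starting at 0 with a range of its own for each gene. The horizontal axis gives the group, points are libraries (3 mice pooled in each) and bars are means of 3 libraries. Mnd1 is high in both dcat/dcat groups, with a mean of 56.7 CPM in ES, whereas Psmc3ip is lower in ES than in RS in both genotypes.

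Mnd1 has a near copy in the genome, the transcribed processed pseudogene Mnd1-ps (chr14:9884195-9886768, plus strand of GRCm38). The copy matched 824 of the 875 nucleotides of the Mnd1 transcript at 97.1% identity, and it had 0 contigs in the count table. Reads of the 2 loci cannot be told apart from counts, and how they were shared was not tested.

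Psmc3ip, which encodes the partner of MND1, did not follow it between genotypes. Its main contig (ENSMUST00000019447; chr11:101091823-101095436, minus strand, 8 exons) had 204, 113 and 238 reads in wt/wt RS and 153, 98 and 148 in dcat/dcat RS. In ES the wt/wt libraries held 43, 44 and 26 reads and the dcat/dcat libraries 43, 34 and 46. Scaled levels were 148 ± 18.6 CPM and 138 ± 22.3 CPM in RS, and 88.6 ± 4.40 CPM and 87.3 ± 11.3 CPM in ES (SD, n = 3, wt/wt given before dcat/dcat). The genotypes overlapped in both stages, whereas every ES library lay below every RS library. The genotype difference was -0.10 (95% interval -0.50 to 0.29) in RS and -0.02 (-0.48 to 0.43) in ES on the log2 scale. The contig with a retained intron (ENSMUST00000126386) held 8 to 56 reads per library, and its genotype differences were -0.06 (SE 0.36) and -0.21 (SE 0.43). The Psmc3ip transcript overlaps Mlx on the opposite strand at its end, and Mlx had 0 contigs in the table.

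No member was called between genotypes, and Mnd1, which is only described, was given no test. Of the 14 contigs of 7 genes that were tested besides Mnd1, 0 were called at q at or under 0.05 in either stage (edgeR quasi-likelihood test, adjusted over all contigs), and over all 11831 contigs the share called was also 0% in RS and 0% in ES. With the replicate number as a block, 3 of all contigs were called in RS and 1 in ES, and 5 and 12 with the block within each stage, while the count among the 14 was 0 in each of these fits. At an unadjusted p under 0.05 the counts were 0 of 14 in RS and 2 of 14 in ES, against 98 and 359 of all contigs. DESeq2 called 0 of the 14 in either stage, and of all 11831 contigs it called 0 in RS and 1 in ES. The log2 differences of the 14 ranged from -0.27 to 0.18 in RS, with a median of -0.03 against 0.01 for all contigs. In ES they ranged from -0.92 to 0.63, with a median of 0.02 against 0.01. The 95% interval held 0 for 14 of 14 contigs in RS and for 12 of 14 in ES.

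In ES, groups that did not overlap between genotypes were found for 2 of the 14 contigs, against 7.66% of all contigs, and in RS for 0 of 14, against 5.32%. One was Sycp2, an axis component, with 11, 15 and 4 reads in wt/wt ES and 14, 14 and 23 in dcat/dcat ES. Its difference was 0.63 (95% interval -0.06 to 1.33; edgeR q = 0.9997). The other was the cyclin A1 contig ENSMUST00000198320, with 18, 30 and 15 reads in wt/wt ES and 12, 10 and 15 in dcat/dcat ES. It was 49.25 ± 10.02 CPM against 26 ± 1.57 CPM (SD, n = 3), a difference of -0.91 (95% interval -1.53 to -0.30). The most abundant cyclin A1 contig, ENSMUST00000197238, gave a like value of -0.92 (-1.79 to -0.04). These were the 2 contigs with an unadjusted p under 0.05, and neither passed the adjustment over all contigs (edgeR q = 0.9997 for both), and the third abundant cyclin A1 contig, ENSMUST00000029368, was at -0.30 (-1.04 to 0.45).

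**Figure D2:**
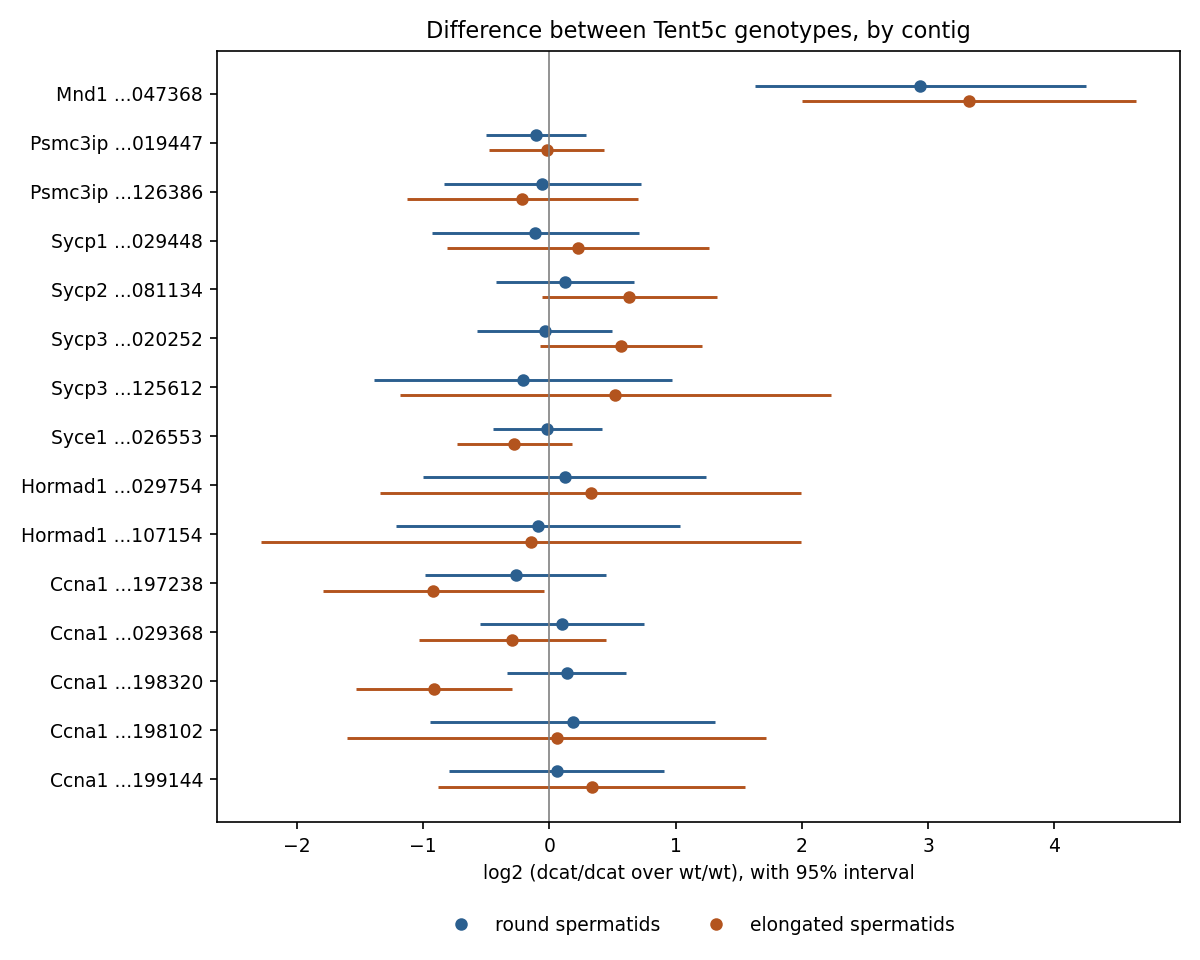
Difference between Tent5c genotypes for the 15 contigs that were tested or described. The horizontal axis gives log2 of dcat/dcat over wt/wt, positive where dcat/dcat is higher, and points with lines are fitted values with 95% intervals in round and elongated spermatids. Mnd1 lies near 3 in both stages, while the other 14 contigs lie between -0.92 and 0.63.

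Between stages, 5 of the 14 contigs passed the test in wt/wt and 4 in dcat/dcat, all of them lower in ES. In wt/wt 5 of 14 were called lower and 0 higher, where 40.3% of all contigs were called and 16.6% were called lower. In dcat/dcat 4 of 14 were called lower and 0 higher, where 41% were called and 17% were called lower. Groups that did not overlap, with ES lower, were found for 5 of 14 contigs in wt/wt (27.4% of all contigs) and for 7 of 14 in dcat/dcat (25.2%). The fitted log2 change was negative for 13 of 14 contigs in each genotype, against 6791 of all 11831 contigs in wt/wt and 6609 in dcat/dcat. The 14 contigs belong to 7 genes, and 5 of them to Ccna1. Medians were -0.75 and -0.55 against -0.24 and -0.18 for all contigs, but the 95% interval of the change held 0 for 9 of 14 in each. Of the 14, 8 reached the minimum of reads in all 4 groups and hold the called contigs. The other 6 reached it through RS groups alone, where they were high, so the counts and medians over the 14 are a description. With at least 10 reads asked for in every library, 6 member contigs were tested, and 6 were called lower in wt/wt and 5 in dcat/dcat. Under this filter 2588 and 2562 of all 3719 tested contigs were called, in either direction. The changes are relative to TMM scaling. Scaling on total counts alone moved the median of all contigs to -0.96 in wt/wt and -0.85 in dcat/dcat, and 9 and 8 of the 14 were then called lower. Of all 11831 contigs, 7363 and 6959 were called in either direction on total counts, against 4771 and 4848 with TMM. The wt/wt count of 5 was 3 without RS replicate 2, 1 without ES replicate 1 and 2 without ES replicate 2, and the dcat/dcat count of 4 was 2 without ES replicate 3. Calls over all contigs were not counted in these fits on fewer libraries, so no share stands beside them.

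Among the 5 contigs of the cyclin Ccna1, 2 were called lower in ES in both genotypes and 1 in dcat/dcat. ENSMUST00000197238 had 284, 169 and 278 reads in wt/wt RS and 47, 37 and 26 in wt/wt ES. In dcat/dcat it had 212, 129 and 127 reads in RS and 36, 10 and 18 in ES. No ES library reached the level of an RS library of its genotype, and the change was -1.21 (SE 0.36, q = 0.0159) in wt/wt and -1.86 (SE 0.39, q = 0.00149) in dcat/dcat (edgeR). ENSMUST00000198320 fell by 0.92 (SE 0.25, q = 0.00814) and by 1.97 (SE 0.26, q = 4.51e-05), from 98, 96 and 143 reads in wt/wt RS and 89, 95 and 107 in dcat/dcat RS. The difference between these changes, dcat/dcat minus wt/wt, was -1.05 (SE 0.36, unadjusted p = 0.0112), and it was not called (edgeR interaction term; 0% of all contigs were called). In wt/wt the call of ENSMUST00000197238 was lost without ES replicate 2 (q = 0.109) and that of ENSMUST00000198320 without ES replicate 1 (q = 0.0894). ENSMUST00000029368 held 147, 163 and 240 reads in wt/wt RS, 31, 54 and 40 in wt/wt ES, 125, 157 and 182 in dcat/dcat RS, and 26, 51 and 37 in dcat/dcat ES. It passed in dcat/dcat (-0.98, SE 0.33, q = 0.0266) and not in wt/wt (-0.59, SE 0.32, q = 0.161; with the replicate number as a block -0.62, q = 0.0158), and the interaction of -0.39 (SE 0.46) was not called. Its dcat/dcat call was lost without RS replicate 2 (q = 0.102) and without ES replicate 1 or 3 (q = 0.0910 and 0.143). The 5 contigs of Ccna1 (chr3:55045469-55055501, minus strand) overlap on the genome, so the split of reads among them is uncertain. Summed by library, Ccna1 went from 471 ± 59.1 to 257 ± 45.0 CPM in wt/wt and from 459 ± 73.8 to 176 ± 38.2 CPM in dcat/dcat (SD, n = 3).

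Of the strand exchange genes, the main Psmc3ip contig fell by 0.74 (SE 0.20, q = 0.00836) in wt/wt and by 0.66 (SE 0.20, q = 0.0158) in dcat/dcat (edgeR). Its retained-intron contig changed by 0.14 (SE 0.39) and -0.02 (SE 0.40) and was not called. Psmc3ip and the Ccna1 contigs ENSMUST00000197238 and ENSMUST00000198320 were the 3 contigs called lower in both genotypes. Leaving out wt/wt ES replicate 1 or 2 took the q of Psmc3ip to 0.0537 and 0.0790, and in dcat/dcat leaving out RS replicate 1 or ES replicate 2 or 3 took it to 0.0753, 0.0536 and 0.0845.

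The axis genes Sycp2 and Sycp3 were called in wt/wt only. Sycp2 (ENSMUST00000081134; chr2:178345293-178407685, minus strand) had 38, 45 and 81 reads in wt/wt RS against 11, 15 and 4 in ES, a change of -0.95 (SE 0.30, q = 0.0214 in edgeR). In dcat/dcat it had 45, 38 and 57 reads in RS and 14, 14 and 23 in ES, and the change was -0.44 (SE 0.28, q = 0.225). Sycp3 (ENSMUST00000020252; chr10:88459569-88473235, plus strand) had 77, 55 and 117 reads in wt/wt RS and 18, 12 and 17 in ES, and it fell by 0.79 (SE 0.28, q = 0.0387). It had 66, 46 and 76 reads in dcat/dcat RS and 24, 20 and 38 in ES, a change of -0.18 (SE 0.27, q = 0.614). ES libraries lay below RS libraries without overlap for both genes in wt/wt, and in dcat/dcat for Sycp2 but not for Sycp3. The changes were not shown to differ between genotypes: the interaction was 0.51 (95% interval -0.38 to 1.39) for Sycp2 and 0.61 (-0.23 to 1.44) for Sycp3. The Sycp3 call rests on few reads and was lost when RS replicate 1, 2 or 3 or ES replicate 1 or 2 of wt/wt was left out (q from 0.0538 to 0.290), and that of Sycp2 was lost with DESeq2 (q = 0.0517), without RS replicate 2 (q = 0.0707) and without ES replicate 1 or 3 (q = 0.0923 and 0.0840). The second Sycp3 contig, ENSMUST00000125612, had 0 to 23 reads per library. Sycp3 lies within Chpt1 on the opposite strand, and direct RNA reads keep the strand of the molecule, but a strand setting of the alignment is not given in the sources used here.

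Hormad1, an axis protein that monitors synapsis, had few reads. Its most abundant contig (ENSMUST00000029754; chr3:95559678-95587592, plus strand) had 19, 14 and 15 reads in wt/wt RS, 17, 18 and 5 in dcat/dcat RS, 1, 6 and 3 in wt/wt ES and 6, 3 and 5 in dcat/dcat ES. The stages overlapped in scaled levels in both genotypes, and the changes of -0.76 (SE 0.68) and -0.56 (SE 0.63) were not called. ENSMUST00000107154 had 0 to 11 reads per library, and ENSMUST00000090797, with 0 to 8, was the contig that was not tested. A processed pseudogene, Gm7167, is 92.3% identical to ENSMUST00000029754 over 1188 nucleotides.

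Syce1 and Sycp1 build the centre of the synaptonemal complex, and neither passed the edgeR test between stages under TMM scaling. Syce1 (ENSMUST00000026553; chr7:140777229-140787852, minus strand) was the member contig with the most reads, with 519, 257 and 587 in wt/wt RS, 385, 242 and 417 in dcat/dcat RS, 164, 145 and 77 in wt/wt ES and 133, 74 and 145 in dcat/dcat ES. Scaled levels were 361 ± 63.5 and 357 ± 48.6 CPM in RS and 297 ± 41.7 and 246 ± 61.8 CPM in ES (SD, n = 3, wt/wt before dcat/dcat). ES lay below RS without overlap in dcat/dcat, where the change was -0.54 (95% interval -0.98 to -0.09, q = 0.0506 in edgeR; with the replicate number as a block q = 0.00382), while the stages overlapped in wt/wt (-0.28, -0.72 to 0.16, q = 0.296). Syce1 did pass in both genotypes with at least 10 reads asked for in every library (-0.60, q = 0.0129 in wt/wt and -0.82, q = 0.00207 in dcat/dcat; edgeR), and on total counts (-0.999, q = 0.000859 and -1.22, q = 0.000225). Sycp1 (ENSMUST00000029448; chr3:102818499-102936100, minus strand) had 20, 20 and 37 reads in wt/wt RS, 18, 20 and 16 in dcat/dcat RS, 7, 5 and 9 in wt/wt ES and 5, 8 and 16 in dcat/dcat ES. Its scaled levels overlapped between stages, with changes of -0.27 (SE 0.45) and 0.06 (SE 0.43). Total count scaling turned the latter to -0.59. Sycp1-ps1, a processed pseudogene, matches it at 92.4% over 2560 nucleotides.

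**Figure D3:**
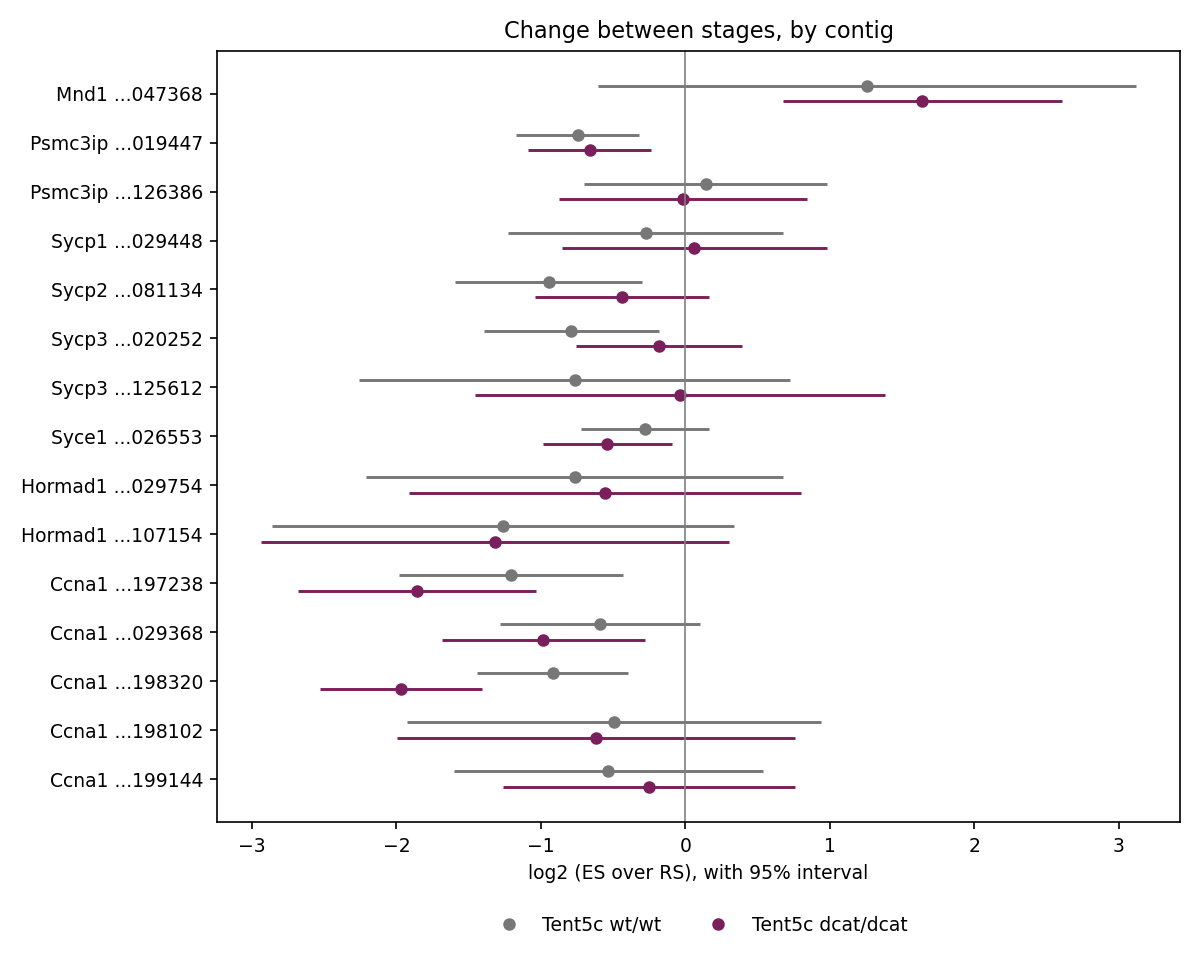
Change from round to elongated spermatids for the same 15 contigs. The horizontal axis gives log2 of ES over RS after TMM scaling, negative where ES is lower, and points with lines are fitted values with 95% intervals in wt/wt and dcat/dcat. The Ccna1 contig ENSMUST00000198320 reaches -1.97 in dcat/dcat, and Mnd1 is positive in both genotypes.

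All member contigs together took 0.151 ± 0.0122% of counts in wt/wt RS, 0.148 ± 0.0131% in dcat/dcat RS, 0.0611 ± 0.00769% in wt/wt ES and 0.0579 ± 0.00239% in dcat/dcat ES (SD, n = 3). The lowest RS library held 0.134% and the highest ES library 0.0700%, so that the stages did not overlap. These are shares of the raw library totals: they fell by 0.0898 percentage points in wt/wt and fell by 0.0904 in dcat/dcat, and summed TMM CPM fell by 0.0400 and by 0.0441 when written as a percent in the same way. In sorted cells, fewer cells of a type and less RNA per cell cannot be told apart. Round spermatid markers (all 7 genes, 12 contigs) summed to 1105 to 1232 CPM in wt/wt RS and 1117 to 1211 CPM in wt/wt ES. In dcat/dcat they summed to 1056 to 1121 CPM in RS and 1012 to 1095 CPM in ES, so the stages overlapped in both genotypes. Spermatocyte markers moved with the stage difference of the member share: all 10 listed genes were read, and their 17 contigs summed to 4249 to 4544 CPM in RS and to 2482 to 3031 CPM in ES. Markers of somatic testis cells moved the other way, although interstitial cells, which include Leydig cells and macrophages, were taken off before sorting. Leydig cell markers (6 of 8 genes read, Hsd3b1 and Star without a contig) summed to 14.95 to 45.4 CPM in RS and 255 to 1013 CPM in ES. Sertoli cell markers (4 of 8 genes, Sox9 and Wt1 among those without a contig) summed to 7.47 to 32.7 and 211 to 404 CPM, and macrophage markers (2 of 5 genes, Csf1r and C1qa among those without one) to 4.15 to 10.6 and 92.6 to 169 CPM. Uchl1, the 1 gene read of 7 listed for spermatogonia, lay at 3.32 to 8.34 CPM in RS and 17.6 to 53.9 CPM in ES, and 0 of 4 erythrocyte genes had a contig. Their part in the stage changes of the members was not tested. Between genotypes the spermatocyte sums overlapped, at 4249 to 4544 CPM in wt/wt and 4281 to 4515 CPM in dcat/dcat RS, and 2482 to 3031 and 2721 to 2873 CPM in ES.

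Other genes of the same pathways gave a wider view. Of 134 listed genes of recombination, synapsis, cohesion and the meiotic divisions, 59 had 97 tested contigs. From RS to ES, 5 rose and 35 fell in wt/wt, with a median of -0.85, and 5 rose and 33 fell in dcat/dcat, with a median of -0.83 (edgeR, q at or under 0.05). Over all contigs 40.3% and 41% were called, 16.6% and 17% were called lower, and the medians were -0.24 and -0.18. On total counts 69 and 67 of the 97 were called, as were 7363 and 6959 of all 11831 contigs. The medians of all contigs were then -0.96 and -0.85. The risen contigs of wt/wt all belonged to Syce2 and Syce3, which encode central element partners of SYCE1: Syce3 ENSMUST00000167959 rose by 2.23 (SE 0.32, q = 7.54e-05) in wt/wt and 2.57 (SE 0.33, q = 3.46e-05) in dcat/dcat, and Syce2 ENSMUST00000003922 by 2.23 (SE 0.34) and 2.52 (SE 0.35). Syce2 ENSMUST00000136026 rose from 80.4 ± 11.9 to 209 ± 36.1 CPM in wt/wt (SD, n = 3). In dcat/dcat the risen contigs included Cks2, a cyclin-dependent kinase subunit, at 1.65 (SE 0.35). Those that fell included regulators of the divisions: the securin Pttg1 (-1.64, SE 0.26), Ccnb2 (-1.40, SE 0.23), Nek2 (-1.29, SE 0.22) and Cdc20 (-1.26, SE 0.23) in wt/wt, and Ccnb1 (-1.97, SE 0.28) and Plk1 (-1.63, SE 0.28) in dcat/dcat. Spdya, which is needed at telomeres in meiosis, fell by 2.03 (SE 0.33) in wt/wt, and Rpa1, a single-strand DNA binding protein, by 1.17 (SE 0.22) in dcat/dcat.

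Between genotypes, 0 of the 97 contigs of these pathways were called in either stage by edgeR, as were 0% of all contigs. An unadjusted p under 0.05 was found for 0 of 97 in RS and 6 in ES, against 98 and 359 of all 11831 contigs (0.828% and 3.03%). The median differences were -0.01 and 0.01, against 0.01 and 0.01 for all contigs. In the class of strand exchange and recombination nodules, which holds the closest functional relatives of Mnd1, 20 contigs of 15 genes had medians of -0.03 and 0.17. Of these 20, 0 in RS and 2 in ES had an unadjusted p under 0.05 (edgeR), and 0 were called.

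Mnd1, Sycp1 and Hormad1 lie on chromosome 3, as does the edited gene Tent5c, at distances of 16.31, 2.33 and 4.88 Mb from it, and Ccna1 lies 45.4 Mb away. Other contigs within 20 Mb were therefore set beside Mnd1. The 257 tested contigs other than Mnd1 had median genotype differences of 0.0036 in RS and 0.08 in ES, against 0.01 and 0.01 for all contigs. An unadjusted p under 0.05 was found for 3 in RS (1.17%, against 0.828% of all contigs) and for 9 in ES (3.5%, against 3.03%), and 0 were called in either stage (edgeR). Those with the smallest p in RS were Gatb (-1.29, SE 0.48), Naxe (-0.79, SE 0.31) and Muc1 (-0.92, SE 0.37), all lower in dcat/dcat. In ES they were Otud7b ENSMUST00000035519 (1.48, SE 0.47), Phtf1 ENSMUST00000055425 (2.53, SE 0.85) and again Gatb (-2.92, SE 1.02). The Phtf1 contig had 0, 1 and 1 reads in wt/wt ES and 3, 5 and 6 in dcat/dcat ES. Other contigs of the same genes did not share these values in ES: those of Phtf1 were at 0.83, -0.58, -0.12 and -0.04, and those of Otud7b at 0.35 and 0.24. Gatb, which encodes a subunit of a mitochondrial amidotransferase, lies 14.8 Mb from Tent5c on the same side as Mnd1, with 12, 10 and 20 reads in wt/wt RS, 6, 3 and 4 in dcat/dcat RS, 1, 4 and 3 in wt/wt ES and 0, 0 and 1 in dcat/dcat ES. The genotypes did not overlap for Gatb in either stage, in the direction opposite to Mnd1. Groups without overlap were found for 7.39% of the 257 contigs in RS and 7% in ES, against 5.32% and 7.66% of all contigs. Gatb was named for its small p, and it reached the minimum for testing only in wt/wt RS, where it was high. Its ES reads lie near the floor, so its values are a description.

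**Figure D4:**
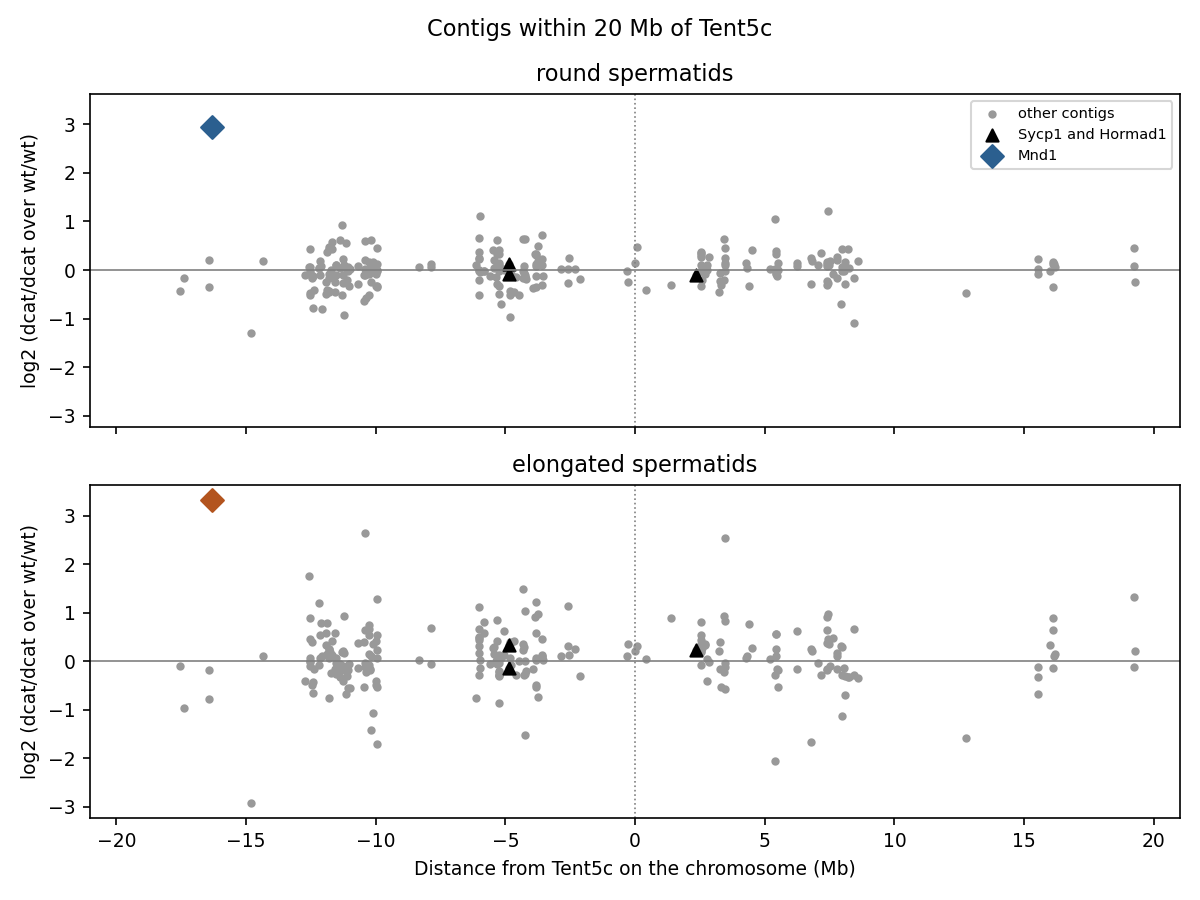
Genotype differences of contigs within 20 Mb of Tent5c, in round and elongated spermatids. The horizontal axis gives the distance from Tent5c in Mb (negative towards the start of the chromosome) and the vertical axis log2 of dcat/dcat over wt/wt; grey points are single contigs, triangles are Sycp1 and Hormad1 and the diamond is Mnd1. Mnd1, at 2.94 and 3.32, stands highest in each panel, and Sycp1 and Hormad1 lie near 0.

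The contigs whose log2 CPM across the 12 libraries was most like that of Mnd1 were Uqcrq (ENSMUST00000156503, a subunit of respiratory complex III; Pearson r = 0.831), Clic4 (an intracellular chloride channel protein, 0.822), Rhno1 (a partner of a DNA damage checkpoint clamp, 0.810), Agpat1 (an acyltransferase of phospholipid synthesis, 0.774) and Gtf2a1 (a general transcription factor subunit, 0.766), among 9089 contigs with at least 100 reads. None of them is in the lists of meiotic genes used here. Their levels moved less: Uqcrq went from 13.7 ± 0.522 CPM in wt/wt to 20.2 ± 5.18 CPM in dcat/dcat RS and from 13.4 ± 3.33 to 32.9 ± 2.49 CPM in ES (SD, n = 3). Syce1, the member with the most reads, was most like Art5 (0.970), Klhl8 (0.962), Stxbp2 (0.961), Atxn2l (0.960) and Prmt7 (0.959). The libraries differ in depth and stage, which all contigs share, so these correlations are a description.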

How the data were processed

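The authors deposited 1 table of raw counts, in whole reads for each contig and library (12 libraries). Per the study's methods, reads were called with Guppy, aligned with minimap2 to GENCODE vM17 transcripts (GRCm38.p6), demultiplexed with Deeplexicon and kept where the poly(A) tail passed Nanopolish. The submitters' processing notes name minimap2 2.20-r1061, and the methods give another version. The filter on tails and the choice among transcripts of 1 gene can change counts. The authors' DESeq2 tables, which hold log2 fold changes and adjusted p-values, gave gene symbols only. Positions came from GENCODE vM21 (GRCm38), which held 11344 of 11517 transcript contigs, and 11224 contigs had a symbol. The table had 0 other per-sample columns.

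A contig was tested if 2 or more libraries of a group held 10 reads or more (11831 contigs; 283 were under this minimum). The tests were made with the quasi-likelihood test of edgeR 4.0.16 (R 4.3.3), with TMM scaling and 1 mean per group over all 12 libraries. Unless stated otherwise, every q and p comes from this fit, and q is the Benjamini-Hochberg adjusted p over all tested contigs. SE is the log2 change divided by the square root of F, and 95% intervals use the moderated degrees of freedom. The script was tested on simulated data. log2 CPM for likeness used a prior count of 2. Near copies were found with blastn 2.17.0. Alternatives were DESeq2 1.42.0, other filters and scalings, sums by gene, replicate blocks and leaving out each library.

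The members and lists were chosen with earlier results of these data known. Named were every member contig, up to 5 risen and 5 fallen pathway contigs of smallest q per stage comparison, Tent5c, and the 3 neighbours on chromosome 3, other than Mnd1, of smallest p per genotype comparison. Groups and replicate numbers came from the labels. Per the study's reporting summary, the cell types were taken from the same animals, and a sorting session held a mouse of each genotype, but neither it nor the labels say that a replicate number marks the same pool of mice. The tests therefore have no block, and values with the number as a block are given where they change a call. Deviations of same-numbered libraries from their group means correlated at 0.494 to 0.777 between RS genotypes and at 0.363 to 0.623 between stages of dcat/dcat, where every pair lay over 0.1. They correlated at 0.052 to 0.628 between ES genotypes and at -0.174 to 0.504 between stages of wt/wt, where at least 1 pair lay under 0.1. No 2 libraries were identical (0 pairs).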

Additional observations from a re-analysis of the deposited data

How the results depend on the processing

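Counts of called contigs below exclude Mnd1, whereas the member share includes it. Scaling on total counts raised the members called between stages from 5 to 9 in wt/wt and from 4 to 8 in dcat/dcat, and pathway contigs from 40 to 69 and from 38 to 67. Calls over all 11831 contigs rose too, from 4771 to 7363 and from 4848 to 6959. Asking for at least 10 reads in every library left 20 pathway contigs called in each genotype, where 2588 and 2562 of all 3719 contigs were called. This filter takes contigs out of the test, and how many pathway contigs stayed in was not counted. The 20 therefore cannot be read as a share. Summed by gene, 2 of 7 members were called in dcat/dcat, where 3794 of all 7706 sums were called. With single libraries left out, 1 to 4 members were called in wt/wt and 2 to 4 in dcat/dcat, and 22 to 38 and 29 to 40 pathway contigs. Without ES replicate 2, 22 pathway contigs were called in wt/wt. How many of all contigs were called in these smaller fits was not counted, so no share is given. Between genotypes and in the interaction, 0 members and 0 pathway contigs were called under every alternative run. With the replicate number as a block, 6 and 5 members and 53 and 50 pathway contigs were called between stages. Of all 11831 contigs, 6104 and 6151 were called with this block. The block changed 2 calls of named contigs, Syce1 in dcat/dcat and the Ccna1 contig ENSMUST00000029368 in wt/wt (-0.62, q = 0.0158 in edgeR).

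The median genotype difference of the neighbours of Tent5c in ES (0.08) was 0.12 on total counts, 0.056 with no filter, -0.0080 with at least 10 reads in every library, 0.10 with the replicate block and 0.11 within 10 Mb, and 0.039 to 0.070 with single libraries left out. In RS it ran from -0.021 to 0.033 with single libraries left out. The fall of the member share (-0.0898 and -0.0904 percentage points in wt/wt and dcat/dcat) was -0.0400 and -0.0441 in summed TMM CPM, and -0.0963 to -0.0843 and -0.0978 to -0.0853 with single libraries left out. Of the 5 contigs most like Mnd1, 2 were shared with at least 300 reads and 3 with Spearman correlation, and for Syce1 3 and 2.

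Directions turned for values near 0. On total counts Sycp1 in dcat/dcat was -0.59 between stages and Psmc3ip 0.011 between ES genotypes, where at least 10 reads in every library gave 0.016. With single libraries left out, the stage change of Sycp1 ran from -0.74 to 0.16 in wt/wt and from -0.24 to 0.33 in dcat/dcat. The RS genotype difference ran from -0.10 to 0.011 for Sycp3, -0.13 to 0.12 for Syce1, -0.10 to 0.30 for Ccna1 ENSMUST00000029368, -0.016 to 0.30 for ENSMUST00000198320, -0.36 to 0.14 for Sycp1, -0.32 to 0.64 for Hormad1 and -0.076 to 0.27 for Sycp2. In ES it ran from -0.13 to 0.065 for Psmc3ip, -0.14 to 0.70 for Sycp1 and -0.19 to 0.84 for Hormad1. The cause of these changes was not tested. Depth limits what the most abundant contigs of Sycp1 and Hormad1 and wt/wt Mnd1 can show, with 0 to 37 reads per library.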
